A study of Mus musculus with 6 samples.

Results

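The hairpins mmu-miR-139, mmu-miR-185, mmu-miR-423, mmu-miR-574 and mmu-miR-671 were followed arm by arm in sperm taken from the cauda, the last stretch of the epididymis, where sperm are held before ejaculation. They make up 5 of the 603 miRNA names and 10 of the 778 rows of the deposited miRNA table, and 8 of the 10 rows were abundant enough to test. The hairpins were chosen by measured values, namely the change of at least one of their arms between the sample groups of this study. Their changes between these groups are therefore a description and carry no test here. The study set 3 sperm samples of stress-induced depressed mice against 3 of normal mice, all from 8-week-old males labelled C57BL/6 (C57BL/6J in the extraction protocol). How the stress was applied, and whether a sample is 1 animal or a pool, is not stated in the labels, so the spread between samples may be technical.

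A miRNA hairpin is cut by Dicer into a short duplex whose strands come from the 5′ arm (5p) and the 3′ arm (3p) of the stem. One strand is usually kept by an Argonaute protein and guides it to messenger RNAs through the seed, the bases near its 5′ end, while its partner is mostly lost. Which arm is kept can differ between tissues. In sperm, miRNAs come from the testis and also from vesicles that the epididymal lining sheds, and they are studied as carriers of a father's condition to the embryo. Both arms of a hairpin leave the same precursor. Their ratio within a library, like that of any pair of rows, needs no scaling to library size.

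The mature sequences are shown because they differ sharply in G content between arms. Capitals mark the seed, bases 2 to 8, and the letters are those of the deposited table. The 9 arms with an entry in the RefSeq table for GRCm38.p6 had the same letters there, and miR-185-5p had no entry.
miR-139-5p: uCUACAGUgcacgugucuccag
miR-139-3p: uGGAGACGcggcccuguuggag
miR-185-5p: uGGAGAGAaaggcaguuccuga
miR-185-3p: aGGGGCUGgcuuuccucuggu
miR-423-5p: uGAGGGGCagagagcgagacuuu
miR-423-3p: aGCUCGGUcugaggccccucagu
miR-574-5p: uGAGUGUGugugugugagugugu
miR-574-3p: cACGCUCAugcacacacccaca
miR-671-5p: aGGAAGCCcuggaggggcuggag
miR-671-3p: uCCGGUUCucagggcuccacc

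G made up 52.2% of miR-671-5p, 47.8% of miR-574-5p, 45.5% of miR-139-3p and 43.5% of miR-423-5p. Their partner arms were poorer in G, at 23.8% for miR-671-3p, 9.09% for miR-574-3p, 22.7% for miR-139-5p and 30.4% for miR-423-3p. The arms of miR-185 were nearly alike, at 36.4% (5p) and 38.1% (3p). The G-rich arm is thus the 5p arm in miR-423, miR-574 and miR-671 and the 3p arm in miR-139. No seed was shared among the 10 arms. In the rest of the table miR-3473a had the seed of miR-185-5p and miR-6921-5p that of miR-423-5p, and neither had more than 4 reads in a sample.

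In the hairpins, from RefSeq on GRCm38.p6, capitals mark the matches to the 2 deposited arms, which shows where each lies in its stem.
miR-139: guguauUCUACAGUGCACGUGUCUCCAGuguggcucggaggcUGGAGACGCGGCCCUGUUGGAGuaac
miR-185: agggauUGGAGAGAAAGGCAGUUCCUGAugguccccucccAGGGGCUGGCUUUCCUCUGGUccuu
miR-423: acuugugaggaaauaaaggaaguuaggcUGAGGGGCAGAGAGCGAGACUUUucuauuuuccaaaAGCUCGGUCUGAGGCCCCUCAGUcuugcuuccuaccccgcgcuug
miR-574: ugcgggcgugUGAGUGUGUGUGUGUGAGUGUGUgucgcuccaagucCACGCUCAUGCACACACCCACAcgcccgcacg
miR-671: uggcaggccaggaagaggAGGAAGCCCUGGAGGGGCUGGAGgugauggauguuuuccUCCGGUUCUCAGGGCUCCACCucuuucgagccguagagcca

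By GENCODE M21, annotated on the same build, 4 of the 5 hairpins are intronic. miR-139 lies on the plus strand of chromosome 7 (101475376 to 101475443) in an intron of Pde2a, which encodes a cyclic nucleotide phosphodiesterase, and of the overlapping Gm45837. miR-185 lies on the minus strand of chromosome 16 (18327401 to 18327465) in an intron of Tango2, and miR-423 on the minus strand of chromosome 11 (77078064 to 77078172) in an intron of Nsrp1, which encodes a splicing regulator. miR-574 lies on the plus strand of chromosome 5 (64970318 to 64970395) in an intron of Fam114a1. miR-671, on the plus strand of chromosome 5 (24592114 to 24592211), overlaps a coding exon of Chpf2, which encodes a chondroitin polymerizing factor, and on the opposite strand an exon of Smarcd3, which encodes a chromatin remodelling subunit.

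The miRNA libraries held 1010203 to 1522849 reads in the stress samples and 1083237 to 3067208 in the normal samples. Normal replicate 3 was the deepest, and values without it are given below where it decided one. Levels are CPM, each row's reads as a share of the library's miRNA reads, scaled by TMM, a method that sets the bulk of the miRNAs equal between libraries. The TMM factors separated the groups, at 1.289, 1.243 and 1.377 in stress and 0.772, 0.683 and 0.859 in normal samples. Scaled to the miRNA total instead, the median log2 fold change of all 236 tested miRNAs moved by 0.76. The direction of each tested arm of these hairpins was therefore also checked in that scaling. The marker sums that follow are TMM-scaled only, and their directions were not checked in the other scaling. Male germ cell markers were present, their summed level at 5160 to 6947 CPM in stress and 7877 to 12937 CPM in normal samples, with 3 of 17 tested rows lower. Markers of other cells were present too. Those of epithelium summed to 21858 to 24848 CPM in stress and 18095 to 21980 CPM in normal samples (0 of 7 tested rows called), those of smooth muscle and stroma to 6900 to 7680 against 3214 to 6587 CPM (2 of 6 higher), and those of leukocytes to 1052 to 1377 against 518 to 948 CPM (0 of 5). Red blood cell markers summed to 195 to 635 CPM in stress and 397 to 1319 CPM in normal samples (0 of 3 called), neural markers to 974 to 1170 against 1112 to 1924 CPM (1 of 3 lower), muscle markers to 269 to 3528 against 133 to 498 CPM (0 of 1) and the liver marker miR-122-5p to 28.0 to 110 against 125 to 2418 CPM (lower). No row of these lists was at 0 in all 6 samples, and their part in the values below was not tested.

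In edgeR's quasi-likelihood fit over the whole table, 5 of the 8 tested arms were called at an adjusted p under 0.05, 4 lower and 1 higher in stress sperm. Over all 236 tested miRNAs 12.7% were called, 10.2% lower and 2.54% higher. Since the hairpins were picked on this contrast, the larger share among them is no result. In bulk RNA, fewer cells of a type and less RNA per cell cannot be told apart. The called arms were miR-139-3p, miR-423-5p, miR-574-5p and miR-671-3p (lower) and miR-185-5p (higher). In each of these hairpins the partner arm was not called or was too rare to test. The groups did not overlap for 6 of the 8 arms, while 39.8% of all tested miRNAs showed no overlap.

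miR-423-5p, known from human plasma as a circulating miRNA, was the most abundant of the 10 arms. It had 755, 670.7 and 861 CPM in stress replicates 1 to 3, against 2644, 2485 and 1411 CPM in normal replicates 1 to 3. All stress samples lay below all normal samples, with normal replicate 3 the nearest. The log2 fold change was −1.51 ± 0.30 (SE, n = 3 per group), or 2.86-fold lower in stress. Its partner miR-423-3p stood at 460, 485 and 543 CPM in stress and 446, 457 and 599 CPM in normal samples, with the groups interleaved (−0.02 ± 0.26). Scaled to the miRNA total, miR-423-5p was at −0.73 and was no longer called, and miR-423-3p was at 0.73. A library's scaling moves both arms alike, so the gap between them does not rest on it.

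The arm balance shows this directly. The 5p arm held 62.1%, 58.1% and 61.4% of the reads of miR-423 in stress samples, against 85.6%, 84.5% and 70.2% in normal samples. These shares rest on 1637 to 5295 reads each, and their 95% Wilson intervals were 2.46 to 4.69 percentage points wide. On the log2 scale 5p over 3p was 0.62 ± 0.13 in stress and 2.08 ± 0.74 in normal samples (SD, n = 3 each), a difference of −1.46, or −1.89 without normal replicate 3.

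miR-574-5p, a GU-repeat miRNA without a single C, differed most in level. It had 37.9, 39.1 and 41.7 CPM in stress samples, against 839, 193 and 121 CPM in normal samples. The stress samples were within 1.102-fold of each other, whereas the normal samples spanned 6.91-fold and normal replicate 1 was far above the rest. The log2 fold change was −3.27 ± 0.64 (SE, n = 3 per group), −2.003 without normal replicate 1 and −2.51 scaled to the miRNA total, and it was called in each case. miR-574-3p, the C-rich partner, had 15, 13 and 13 reads in stress samples and 0, 3 and 25 reads in normal samples, and did not pass the filter on low counts. The count of miR-574-5p in normal replicate 1 was a fraction, 701.5, and whether rows share reads was not tested. Its longest run in common with another row was 13 bases, with miR-466i-5p, which averaged 13.6 CPM.

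For miR-574 the 5p share was 77.3%, 85.1% and 81.7% in stress samples, against 100%, 98.0% and 92.8% in normal samples, without overlap. With 0 reads of 3p among 701.5 in normal replicate 1, the limit of 3 reads allows a 3p share of up to 0.427% there. The log2 ratio of 5p over 3p was 2.10 ± 0.37 in stress and 6.50 ± 3.53 in normal samples (SD, n = 3 each, pseudocount 0.5). That difference of −4.40 depends on the pseudocount and on normal replicate 1, and it was −2.42 without that sample.

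miR-139-5p, which restrains growth in several human tumours, lies opposite the G-rich miR-139-3p. The 3p arm had 8.91, 16.4 and 28.8 CPM in stress samples, against 50.2, 36.9 and 59.6 CPM in normal samples. These do not overlap, and the log2 fold change was −1.45 ± 0.42 (SE, n = 3 per group). The call was kept in 1 of 6 fits that left out a sample, at −1.94 without stress replicate 3. On the miRNA total the groups overlapped and miR-139-3p, at −0.71, was not called. The 5p arm had 31.9, 20.6 and 32.4 CPM in stress samples, against 14.4, 19.7 and 59.98 CPM in normal samples. Normal replicate 3 was above every stress sample and the other normal samples were below them, so the change of miR-139-5p was −0.24 with it and 0.75 without it. Scaled to the miRNA total it was 0.46, and it was called in none of these 3 fits.

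Within miR-139, 5p took 78.2%, 55.7% and 52.9% of the reads in stress samples, against 22.2%, 34.9% and 50.2% in normal samples. The intervals are wide, 10.98 to 27.4 percentage points, because as few as 43 reads stand behind a share. The shares do not overlap between groups, but the intervals of normal replicates 2 and 3 overlap those of stress replicates 2 and 3. The log2 ratio was 0.76 ± 0.90 in stress and −0.88 ± 0.89 in normal samples (SD, n = 3 each), a difference of 1.64, or 2.09 without normal replicate 3.

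In miR-671 the G-rich arm had a higher level in stress than in normal samples, though it stayed below its partner in both. miR-671-5p, which directs cleavage of the circular RNA Cdr1as, has the highest G content of the 10 arms. It had 26.0, 15.3 and 15.8 CPM in stress samples, against 3.59, 3.95 and 11.4 CPM in normal samples. All stress samples lay above all normal samples, yet normal replicates 1 and 2 rest on 3 reads each, at the limit of 3 reads used as a floor. The log2 fold change was 1.36 ± 0.51 (SE, n = 3 per group) and was not called, while without normal replicate 3 it was 2.33 and called. This arm passed the filter on low counts through its stress samples, with 3 of 3 above the cutoff against 1 of 3 normal samples. miR-671-3p had 94.3, 65.6 and 107 CPM in stress samples, against 205, 203 and 164 CPM in normal samples, without overlap (−1.10 ± 0.28, called). That call was kept in 1 of 6 fits that left out a sample, without normal replicate 3, with values of −1.25 to −0.92 over the 6. Scaled to the miRNA total miR-671-3p was at −0.33, its groups overlapped and it was not called, while miR-671-5p was called at 2.07.

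The 5p arm took 21.6%, 19.0% and 12.9% of the reads of miR-671 in stress samples, against 1.72%, 1.91% and 6.49% in normal samples. Each share rests on 153 to 462 reads, and the groups do not overlap. The log2 ratio was −2.21 ± 0.45 in stress and −4.97 ± 0.99 in normal samples (SD, n = 3 each). The difference was 2.75, or 3.32 without normal replicate 3, and 2.09 with a pseudocount of 5.

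miR-185-5p, known to repress the small GTPases RhoA and Cdc42, was the one called arm that was higher in stress. It had 149, 141 and 154 CPM in stress samples, against 57.4, 61.9 and 65.7 CPM in normal samples. The replicates were tight in both groups, within 1.09-fold and 1.14-fold, and no other arm described here was so even in normal samples. The log2 fold change was 1.26 ± 0.25 (SE, n = 3 per group), or 2.39-fold, and 2.01 scaled to the miRNA total. Normal replicate 3 did not stand apart here, and without it the value was 1.34. miR-185-3p had 2, 5 and 0 reads in stress samples and 1, 1 and 2 reads in normal samples, which is too few to say whether it differed. The 5p share of miR-185 was 98.2% to 100% in stress and 97.9% to 98.9% in normal samples, with overlap.

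**Figure D1:**
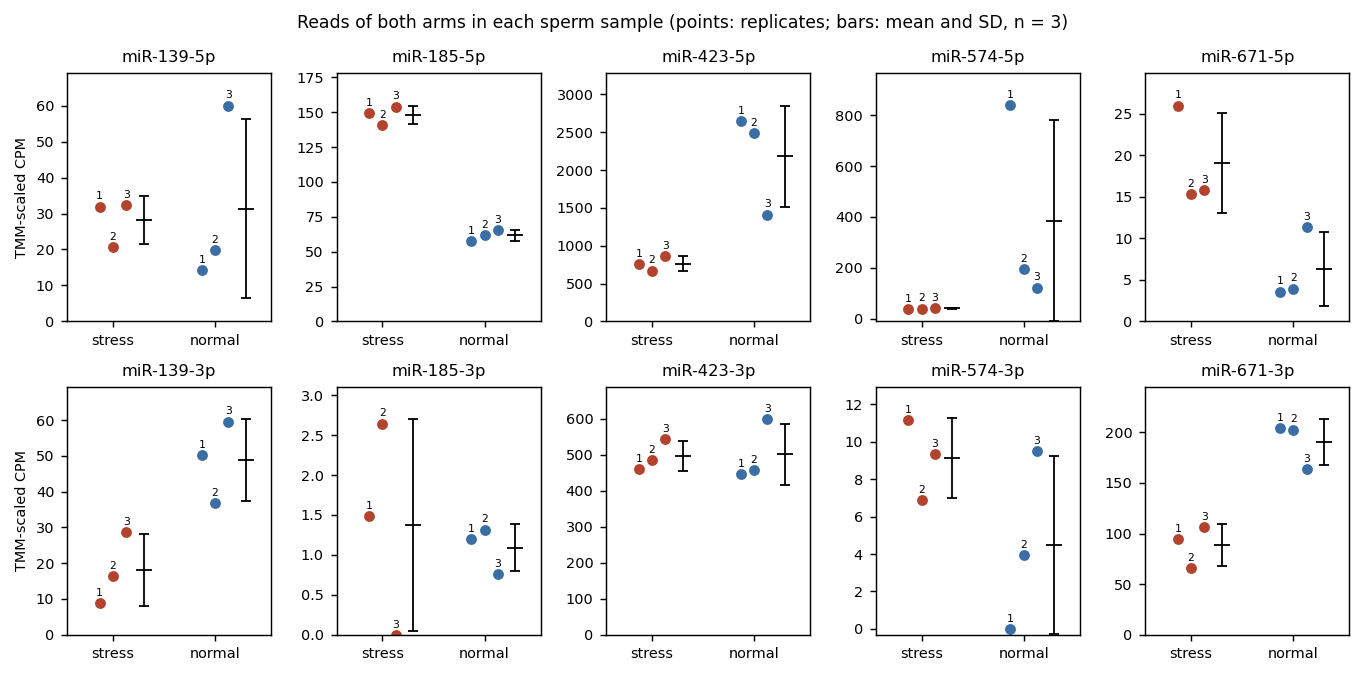
TMM-scaled CPM of both arms of the 5 hairpins in the stress (left) and normal (right) samples. Points are replicates with their numbers, bars give the mean and SD over 3 samples, and each panel has its own linear axis. miR-423-5p, miR-574-5p, miR-139-3p and miR-671-3p lie lower in all stress samples and miR-185-5p and miR-671-5p lie higher, with normal replicate 3 the normal sample nearest to stress for each of these but miR-139-3p.

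Normal replicate 3 lay between the stress mean and the mean of the other normal samples in the log2 arm ratio of 5 of 5 hairpins. It was also the deepest library, and the part of depth or of this library in these values was not tested. For miR-185, whose groups overlap, the difference was 1.52 with all samples, 1.89 without normal replicate 3 and 0.59 without stress replicate 3, which had 0 reads of 3p.

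**Figure D2:**
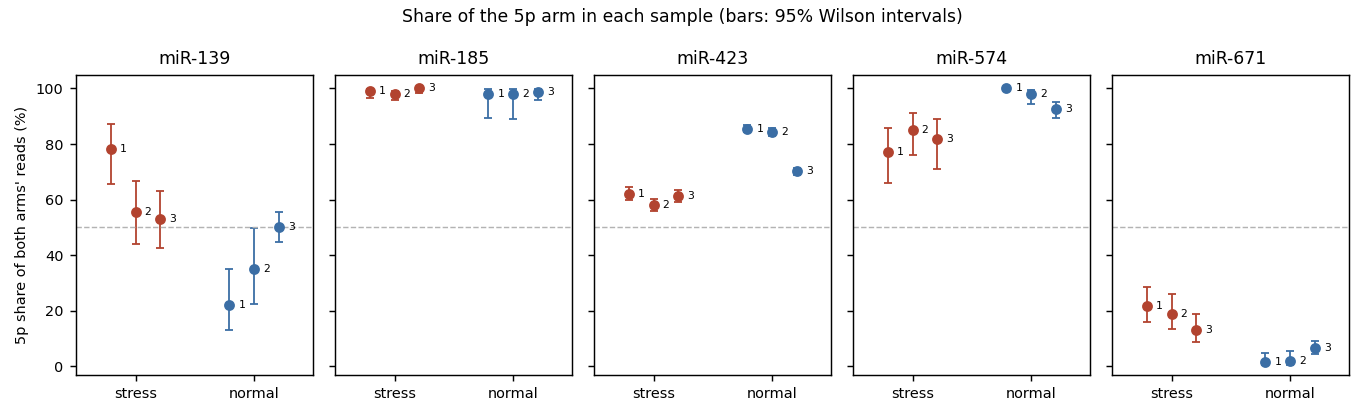
Share of the 5p arm among the reads of both arms, in percent, for each stress (left) and normal (right) sample, with 95% Wilson intervals that cover counting error only. The dashed line marks equal arms. The 5p share is lower in stress for miR-423 and miR-574, higher for miR-139 and miR-671, and near 100% throughout for miR-185.

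Which arm prevailed over all 6 samples was not itself used to choose the hairpins and was tested. The choice is not fully independent of it, since an arm needs enough reads to be called. In the 4 hairpins with a prevailing arm, that arm was also the called one. 5p exceeded 3p in 6 of 6 samples for miR-185, miR-423 and miR-574, by 70.1-fold, 2.55-fold and 19.7-fold on average, and 3p exceeded 5p in 6 of 6 samples for miR-671, by 12.1-fold. The folds of miR-185 and miR-574 rest on few 3p reads and on the pseudocount of 0.5. Their mean log2 ratios of 6.13 and 4.30 became 4.34 and 3.38 with a pseudocount of 5, with the same calls. Each of the 4 hairpins had p = 0.03125 in a two-sided exact sign-flip permutation test over 6 samples, the smallest this number of samples allows, and an adjusted p of 0.0391 over the 5 hairpins. For miR-139 neither arm prevailed (mean log2 ratio −0.06 ± 1.203, SD, n = 6, exact permutation p = 1), with 5p higher in 4 samples and 3p in 2. In normal replicate 3, counted as 5p higher, the arms had 158 and 157 reads. The mean pools groups of opposite sign, 0.76 in stress and −0.88 in normal samples, so it does not show even arms in either. Read numbers of different sequences also depend on how well each ligates during library building, so these are ratios of reads, not of molecules.

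By level, the order in stress samples was miR-423-5p, miR-423-3p, miR-185-5p, miR-671-3p and miR-574-5p, each above the highest value of the next, followed by miR-139-5p, miR-671-5p, miR-139-3p and miR-574-3p with overlapping ranges between neighbours, and miR-185-3p last. In normal samples miR-423-5p again led, but miR-574-5p came after miR-423-3p at 385 ± 395 CPM, with a range that overlaps those of miR-423-3p (501 ± 85.6 CPM) and miR-671-3p (190 ± 22.9 CPM; SD, n = 3 each). miR-185-5p followed in normal samples at 61.7 ± 4.13 CPM, overlapping miR-139-3p.

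The G content of the arms was set against their change. Of the 4 tested arms with at least 40% G, miR-139-3p, miR-423-5p and miR-574-5p were lower and called, and miR-671-5p, at 1.36, was not called. These hairpins were chosen on this contrast, and miR-671-5p passed the filter through its stress samples. The 4 arms are therefore a description and say nothing about G content. Outside the 5 hairpins, 20 tested miRNAs had at least 40% G. Of these, 9 were called lower and 0 higher, with a median log2 fold change of −1.08, while 11 of 208 miRNAs below 40% G were called lower and 5 higher, with a median of 0.07. With G and GC content corrected for, the G-rich median was −0.49, and scaled to the miRNA total it was −0.32 against 0.81 for the rest. The lowest G-rich miRNAs outside the hairpins were miR-122-5p (−4.07 ± 0.99 SE), miR-669c-5p (−3.25 ± 0.50) and miR-206-3p (−2.67 ± 1.07, not called). The highest were miR-3473e (0.43 ± 0.27), miR-3473b (0.32 ± 0.32) and miR-664-5p (0.31 ± 0.44), none of them called.

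Among sequence runs, the letters GGG, present in miR-423-5p, miR-185-3p, miR-671-5p and miR-671-3p, were counted first. Of 48 other tested miRNAs with GGG, 4 were called lower and 0 higher, with a median of −0.12, beside 20 lower and 5 higher of all 228 tested outside the hairpins, with a median of 0.01. Scaled to the miRNA total, these medians were 0.65 with GGG and 0.77 for all 228. UGUGUG, the repeat unit of miR-574-5p, was held by 6 other tested miRNAs, 2.63% of those tested. Of these, 3 were called lower, namely let-7b-5p, miR-669c-5p and miR-672-5p, and 0 higher. The median of the 6 was −2.16, or −1.38 scaled to the miRNA total. With 6 miRNAs the count is small, and 4 of the 6 also hold at least 40% G. Runs were looked for on the strand of the RNA itself. GGG stood in 29.3% of all rows of the table and UGUGUG in 4.24%.

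The comparison of arms within a hairpin was then extended to the 37 other hairpins with both arms tested. The G-richer arm had the lower log2 fold change in 19 of the 34 whose arms differed in G content (55.9%). Across the 37, the difference in G content and the difference in log2 fold change had Spearman rho = −0.28 and Pearson r = −0.42, as a description, since hairpins share libraries and some are related. At 10 percentage points of G or more, 9 of 15 went that way. The lowest of these for the G-richer arm were let-7b (5p minus 3p at −2.90), miR-223 (−2.78) and miR-342 (−2.56), and the highest were miR-1843b (1.03), miR-1843a (0.76) and let-7d (0.55). The value of miR-223 rests on few normal reads. Its 3p arm averaged 13.7 CPM in stress and 2.52 CPM in normal samples (2.09 ± 0.68 SE, not called), and passed the filter through its stress samples. miR-1843a and miR-1843b are close copies whose reads may be shared. The members with both arms tested were at −1.21 for the G-richer minus the G-poorer arm in miR-139, −1.499 in miR-423 and 2.46 in miR-671. These 3 values come from the contrast that chose the hairpins, and that of miR-671 uses miR-671-5p, which passed the filter through its stress samples, so they are not set against the other hairpins.

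**Figure D3:**
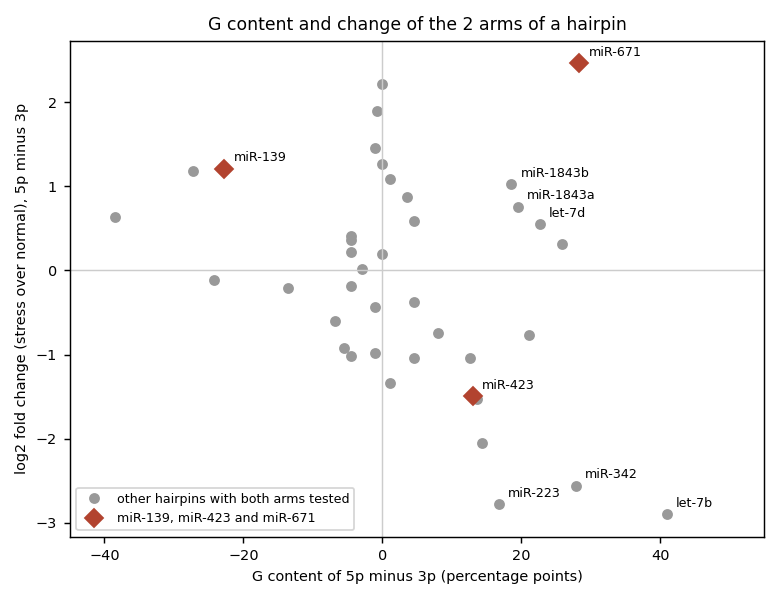
Difference in G content (5p minus 3p, percentage points) against the difference in log2 fold change, stress over normal (5p minus 3p), for 40 hairpins with both arms tested. Diamonds mark miR-139, miR-423 and miR-671, whose values come from the contrast that chose them and are a description. miR-139 and miR-423 lie where the G-richer arm is lower in stress, and miR-671 lies where it is higher.

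A linear correction of each library for G and GC content, fitted over all tested miRNAs, moved the arms unequally. miR-423-5p was at −0.90 ± 0.24 (SE), miR-574-5p at −2.45 ± 0.54, miR-671-3p at −1.13 ± 0.28 and miR-185-5p at 1.56 ± 0.26, and these were called. miR-671-5p became called at 2.12 ± 0.58, and miR-139-3p, at −0.85 ± 0.43, was no longer called.

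**Figure D4:**
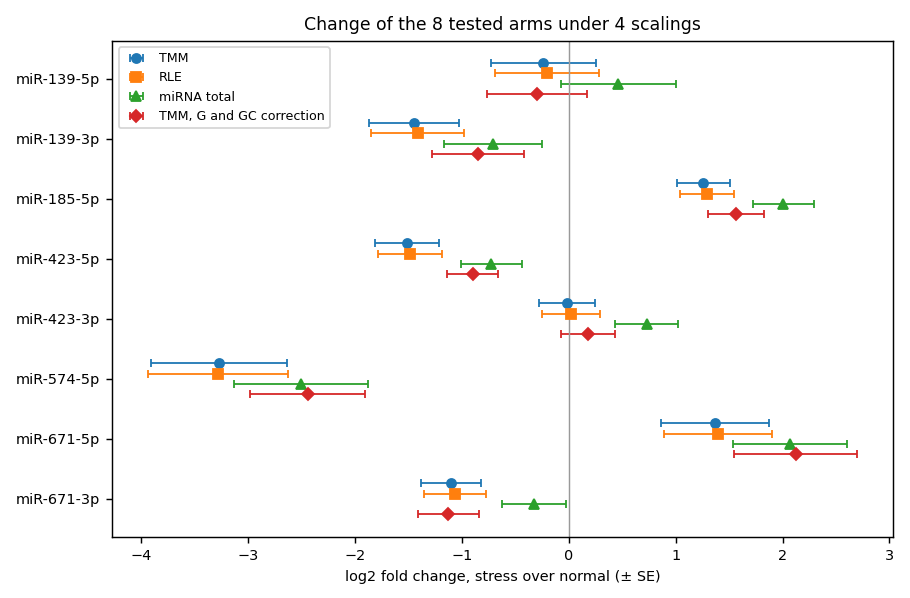
Log2 fold change, stress over normal, with its SE for the 8 tested arms under TMM, RLE, scaling to the miRNA total and TMM with a correction for G and GC content. miR-574-5p (−3.29 to −2.45) and miR-185-5p (1.26 to 2.01) keep their direction and call in the 4 settings, while miR-139-5p and miR-423-3p lie on either side of 0.

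Over the 6 samples, the miRNAs outside the 5 hairpins whose log2 CPM was most like a called arm were listed by Pearson's r, which here mostly follows the group difference and is a description. For miR-574-5p they were let-7b-5p (r = 0.99), miR-669c-5p (0.97) and miR-342-5p (0.97), each with at least 40% G. let-7b-5p had 17522, 13872 and 14476 CPM in stress samples, against 135613, 49950 and 35125 CPM in normal samples, the same order of normal replicates as in miR-574-5p. For miR-423-5p they were miR-222-3p (r = 0.98), miR-485-5p (0.97) and miR-184-3p (0.97), with 28.6%, 36.4% and 40.9% G. For miR-671-3p they were miR-3470b (0.98), miR-1198-5p (0.96) and miR-222-3p (0.96). For miR-185-5p they were miR-3068-3p (0.97), miR-677-5p (0.96) and the combined row of miR-199a-3p and miR-199b-3p (0.96). miR-677-5p had 18.6, 7.93 and 10.8 CPM in stress samples and 0, 1.32 and 0.38 CPM in normal samples, each below the floor of 3 reads. It passed the filter through its stress samples, and its r rests on those floor values. miR-139-3p had looser matches, miR-434-5p (0.88), miR-204-3p (0.87) and miR-22-3p (0.84), with 22.7%, 47.6% and 27.3% G.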

How the data were processed

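Sperm RNA was isolated with TRIzol and made into libraries with an Illumina TruSeq kit, per the labels' protocols. Reads were handled with Bowtie, per the submitters' processing notes. The labels do not state read filters, genome build or counting rule. The deposited values are the authors' expected counts per mature miRNA, 92.0% of them whole within 0.001. They were rounded and fitted over the whole table with edgeR 4.0.16 in R 4.3.3 (filterByExpr, minimum count 10, TMM, glmQLFit and glmQLFTest, two-sided, Benjamini-Hochberg, threshold 0.05). Fold changes are stress minus normal, and an SE is the log2 fold change divided by the square root of F. Arm ratios used unrounded counts plus 0.5. The fit was tested on simulated data. Groups follow the disease-state labels. Intervals and floors cover counting error only, since no molecular identifiers are described. The piRNA and tRNA-fragment tables were not used. The hairpins, lists and the rule for named miRNAs (strongest likeness, largest arm gaps, largest G-rich changes, shared seeds) were chosen with earlier results of these data known. Alternatives were RLE, upper quartile and total scaling, DESeq2 1.42.0, no filter, other pseudocounts, a G and GC correction, a replicate block and leaving out each sample.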

Additional observations from a re-analysis of the deposited data

How the results depend on the processing

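The 30 calls in the table (24 lower, 6 higher) became 106 scaled to the miRNA total (10 lower, 96 higher, with 16 of the 30 kept), 47 with DESeq2 (30 lower, 17 higher) and 49 without the filter on low counts (30 lower, 19 higher), and 17 to 55 when a sample was left out, lowest without stress replicate 3 and highest without normal replicate 3. RLE gave 44 calls (28 lower, 16 higher), upper quartile scaling 31 (21 lower, 10 higher) and the G and GC correction 42. Of the arms described, 5 were called with TMM, 3 scaled to the miRNA total and 3 with the replicate block (28 calls in the table), which keeps miR-185-5p, miR-423-5p and miR-574-5p. Deviations of same-numbered samples correlated at 0.111, −0.207 and 0.121, and those of differently numbered samples at −0.322 to 0.245. Pairing by replicate number did not show in these values, but 3 samples per group are too few to settle it. When a sample was left out, 3 to 5 arms were called. miR-185-5p, miR-423-5p and miR-574-5p were called in 6 of 6 such fits, miR-139-3p in 1 (without stress replicate 3) and miR-671-3p in 1 (without normal replicate 3). miR-139-3p was also not called with upper quartile factors. No called arm changed sign in any alternative run, and of 104 alternative values of the 8 arms 90 lay within the replicate SD. Most of the 14 that did not came from total scaling and from the G and GC correction, each of which moved most of the arms. The replicate SD itself ran from 0.08 (miR-185-5p) to 1.03 (miR-574-5p).

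For the prevailing arm, 3 or 5 samples cannot reach the threshold (smallest p 0.25 and 0.0625), so the calls end there by construction. The mean log2 ratio of 5p over 3p was 6.89 (miR-185), 0.62 (miR-423), 2.10 (miR-574) and −2.21 (miR-671) in stress samples alone, and 5.37, 2.08, 6.50 and −4.97 for these hairpins in normal samples alone. Leaving out a sample gave 5.61 to 6.36 for miR-185, 1.11 to 1.52 for miR-423, 3.07 to 4.82 for miR-574 and −3.94 to −3.19 for miR-671. For miR-139, which had no call, the sign turned in stress samples alone (0.76), and the ratio was −0.43 to 0.28 when a sample was left out, above 0 without normal replicate 1 (0.28) or normal replicate 2 (0.11). The group difference in arm ratio kept its sign in every alternative for the 5 hairpins. The replicate block cannot change this difference in a balanced design, so it is no check here. Across other hairpins, the share with a lower G-richer arm was 55.9% and was higher in each of the 9 alternatives, with 61.1% when arms were ranked by GC content instead, but among the 5 with both arms at 50 CPM or more rho was 0.06. These alternatives reuse the same libraries and are not independent of each other. Depth limits miR-185-3p, miR-574-3p and miR-671-5p most.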
